A study of Homo sapiens with 74 samples.

Results

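The SMARCA4 and SMARCA2 genes were followed through the accessibility of the chromatin at their own loci. Regions were taken where they overlap chr19:11050000-11190000, the SMARCA4 locus, or chr9:1995000-2215000, the SMARCA2 locus, in hg19. These windows held 25 of the 145536 regions of the knockout table, 4 at SMARCA4 and 21 at SMARCA2. The same 25 regions stand among the 145730 of the knockdown table.

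SMARCA4 (BRG1) and SMARCA2 (BRM) are the alternative ATPases of the BAF (SWI/SNF) complexes, which slide and evict nucleosomes. Each complex carries either enzyme, never both, and cells that lose SMARCA4 are known to come to rely on its paralog. ATAC-seq measures open chromatin by where a transposase can cut DNA. It does not measure the RNA or protein of either gene.

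All libraries came from HAP1, an established near-haploid human line of chronic myeloid leukaemia origin. Clones lacking 1 of 22 genes, 26 clones in all with 2 libraries each, make up the knockout table with 4 wild-type libraries. SMARCA4 loss was represented by clones 4 and 6, SMARCA2 loss by clone 12 alone. The other genes were ACTB, ARID1A, ARID1B, ARID2, BCL7A, BCL7B, BCL11A, BCL11B, BRD7, BRD9, DPF1, DPF2, DPF3, PBRM1, PHF10, SMARCC1, SMARCC2, SMARCD1, SMARCD2 and SMARCD3. Wild-type replicates 1 and 2 and 23 of the clones form set 1 by the form of their titles. Replicates 5 and 6 and 1 clone each of ARID1B, BCL7B and SMARCC2 form set 2, an inferred grouping. The knockdown table held 8 groups of 2 libraries, with SMARCA4, ARID2, both or a control knocked down in wild-type cells, ARID2 or a control in SMARCA4 knockout cells, and SMARCA4 or a control in ARID2 knockout cells. Knockout libraries held 5085811 to 12422345 counts each, and knockdown libraries 5355899 to 12432292. The labels do not say how the genes were disrupted, which clone the knockdowns used, or whether replicates were grown separately. The p-values therefore reflect library-to-library spread, which may be technical. A region that lies outside the edited stretch cannot check a knockout label, and the edited stretches are not given, so the 25 regions check no label.

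Values are CPM (counts scaled to a common library total) after TMM scaling, and a region is called when its adjusted p is below 0.05 in edgeR's quasi-likelihood test over all regions of a table. DESeq2, run as an alternative, gave as many calls as edgeR at each locus in all comparisons given here, except in some single clones. Each region is named by its locus and the distance of its centre, in kb, from the centre of the locus' most accessible region in wild type, with plus pointing downstream. The most accessible SMARCA4 region, 0 kb, was chr19:11071118-11071912 with 24.4 ± 3.70 CPM in wild type of set 1 (SD, n = 2). The most accessible SMARCA2 region, 0 kb, was chr9:2014819-2015570 with 43.7 ± 12.1 CPM (SD, n = 2). Per kb of region these levels were 30.7 and 58.2 CPM, the higher at SMARCA2, and they stood at the 97.5th and 99.8th percentile of all regions.

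The SMARCA4 locus was sparse, with 2.86 regions per 100 kb against 9.55 at SMARCA2. Its other regions were -18.6 kb (chr19:11052548-11053253), +23.5 kb (chr19:11094722-11095223) and +75.3 kb (chr19:11146426-11147115), at 7.04, 2.73 and 7.65 CPM in wild type of set 1. At SMARCA2, 3 further regions crowded within 3.8 kb downstream of 0 kb, and +143.0 kb (chr9:2157144-2159187), the widest of the 25 at 2043 base pairs, reached 26.6 CPM. Above the median accessibility of all regions stood 3 of the 4 SMARCA4 regions and 13 of the 21 SMARCA2 regions.

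RefSeq promoters of both genes matched by symbol (2 of 2 genes) and are shown to give the sequence at the starts that the accessible regions are set beside. They are in GRCh38.p14, a later build than the hg19 of the regions, so only distances were compared and no coordinate was converted. Shown are the 250 bases before the first SMARCA4 start (chr19:10960780-10961029, plus strand), before the first SMARCA2 start (chr9:2015097-2015346, plus strand), and before the third SMARCA2 start (chr9:2157412-2157661, plus strand), the inner start, which lies inside the gene. Capitals mark GC boxes, searched as GGGCGG on either strand.
SMARCA4 first start: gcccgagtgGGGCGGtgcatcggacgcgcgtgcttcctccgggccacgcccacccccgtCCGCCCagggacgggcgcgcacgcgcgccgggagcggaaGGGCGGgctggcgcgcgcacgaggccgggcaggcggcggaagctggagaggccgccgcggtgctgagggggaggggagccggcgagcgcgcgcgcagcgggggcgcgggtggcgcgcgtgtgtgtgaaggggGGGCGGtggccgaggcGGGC
SMARCA2 first start: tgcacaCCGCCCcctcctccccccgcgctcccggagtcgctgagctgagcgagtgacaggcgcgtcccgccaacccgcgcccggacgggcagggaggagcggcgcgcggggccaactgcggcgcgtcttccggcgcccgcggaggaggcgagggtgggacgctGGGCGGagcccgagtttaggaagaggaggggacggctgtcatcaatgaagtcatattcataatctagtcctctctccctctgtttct
SMARCA2 inner start: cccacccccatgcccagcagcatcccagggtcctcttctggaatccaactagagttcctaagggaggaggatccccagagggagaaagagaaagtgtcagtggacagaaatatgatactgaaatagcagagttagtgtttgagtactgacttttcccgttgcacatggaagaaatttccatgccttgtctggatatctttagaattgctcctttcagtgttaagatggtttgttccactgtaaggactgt

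The 300 base window of the first SMARCA4 start (250 bases before and 50 after) held 55 CpG dinucleotides and 5 GC boxes, the fifth of which crosses the start and is shown in part. Its CpG count stood at the 99.7th percentile of 35116 RefSeq promoter windows of the same length, whose median was 14. The first SMARCA2 start had 30 CpGs, at the 79.3rd percentile, and 2 GC boxes, and the third had 4 CpGs and none. A GC box in either orientation occurred in 45.0% of all windows. The window of the first SMARCA2 start also held the AP-1 letters TGACTCA from base 10 to base 16 after the start, and 4.9% of all windows hold these letters on either strand. If each 0 kb region is laid on its gene's first start, the third and the fourth SMARCA2 starts, 142315 and 143117 bases downstream, fall inside +143.0 kb, which spans 141949 to 143992 bases from the centre of 0 kb. The width of SMARCA2 0 kb leaves 375 bases of uncertainty, enough to place the third start just outside its edge. The second SMARCA4 start, 23094 bases downstream, falls before +23.5 kb, which begins at 23207 bases, by less than the 397 bases of uncertainty that the width of 0 kb leaves. The second SMARCA2 start, 6598 bases downstream, falls in no region.

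Loss of SMARCA4 left its own locus without a called change. At SMARCA4 0 kb, wild-type replicates 1 and 2 read 27.0 and 21.8 CPM, clone 4 read 23.9 and 22.0, and clone 6 read 24.5 and 26.6. The knockout libraries lay within the range of the wild type, and the log2 fold change was -0.01 (SE 0.172, adjusted p = 0.971). The remaining regions were at 0.23 (-18.6 kb), 0.23 (+23.5 kb) and 0.32 (+75.3 kb) on the log2 scale, so 0 of 4 were called by edgeR, 0 had an unadjusted p below 0.05 and 0 were called by DESeq2, where 21.9% of all regions were called. All regions within 1000 kb on both sides had a median of 0.29, so the shifts of the 3 minor regions were of the size of their surroundings. On the authors' normalized values, the median of all regions was shifted by 0.34 in this comparison. With that shift removed and limma as the test, SMARCA4 0 kb was instead lower by a log2 change of -0.65 (adjusted p = 0.0035), and with all wild type pooled its value was 0.17 (edgeR, not called).

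At the paralog's locus, SMARCA4 loss came with changes in both directions. Of the 21 SMARCA2 regions, 9 were called, 6 higher and 3 lower, beside 8.00% of all regions called higher and 13.9% called lower. The median log2 fold change over the 21 was 0.48, against 0.01 over all regions and -0.04 over regions within 1000 kb.

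**Figure D1:**
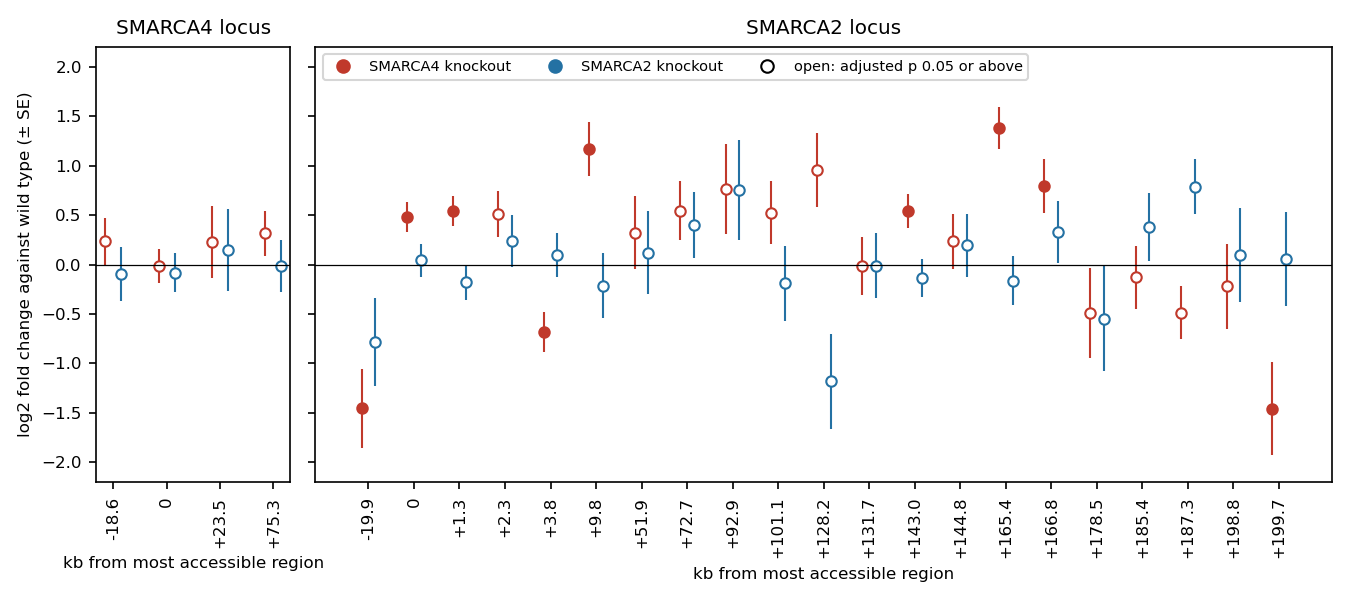
Log2 fold change against wild type (vertical axis, ± SE from the edgeR fit) of the 4 SMARCA4 and 21 SMARCA2 regions, placed in genomic order by kb from the most accessible region (horizontal axis, not to scale). Red is the SMARCA4 knockout and blue the SMARCA2 knockout, filled points were called: red points are filled at 9 SMARCA2 regions, from -1.46 to 1.38, and no blue point is filled. The rises at 0 kb and +1.3 kb turn to -0.33 and -0.13 on the authors' values with the median removed.

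The largest rise was at +165.4 kb (chr9:2179971-2181250). Wild-type replicates 1 and 2 read 10.5 and 11.0 CPM, clone 4 read 25.9 and 32.3, and clone 6 read 26.3 and 27.4. Every SMARCA4 knockout library exceeded both wild-type libraries, with a log2 change of 1.38 (SE 0.211, 2.60-fold, adjusted p = 3.32e-08). This call held in each of the 15 settings tested, with log2 fold changes from 0.88 to 1.75.

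Region +9.8 kb (chr9:2024469-2025426) was the other strong rise. It read 5.44 and 4.18 CPM in wild type, 12.7 and 10.7 in clone 4 and 7.97 and 12.4 in clone 6. The groups did not overlap, the log2 fold change was 1.17 (SE 0.276, 2.25-fold, adjusted p = 0.00051), and it was called in each of 15 settings. Between 0 kb and this region lies +3.8 kb (chr9:2018688-2019331), which moved the other way. It read 14.5 and 11.2 CPM in wild type, 7.69 and 7.67 in clone 4 and 8.30 and 8.50 in clone 6. All 4 knockout libraries lay below both wild-type libraries, and the log2 fold change was -0.68 (SE 0.203, adjusted p = 0.00727). Without wild-type replicate 1 it was -0.48 and not called (adjusted p = 0.251).

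The 0 kb region of SMARCA2 rose less and less surely. It read 52.2 and 35.1 CPM in the wild-type replicates 1 and 2, 63.4 and 57.9 in clone 4 and 58.8 and 64.2 in clone 6. Although these groups did not overlap, the 2 wild-type libraries differed more from each other than the 4 knockout libraries did among themselves. Wild type of set 2 read 65.1 and 49.6 CPM, the first above all 4 knockout libraries. Against set 1 the log2 fold change at 0 kb was 0.48 (SE 0.149, adjusted p = 0.0107). With all wild type pooled it was 0.28 and not called (edgeR, adjusted p = 0.0685). It was -0.33 (adjusted p = 0.018) on the authors' normalized values with the median removed, 0.23 without wild-type replicate 2 and 0.11 with cyclic loess scaling (adjusted p = 0.561). Neighbouring +1.3 kb (chr9:2015780-2017206) read 28.3 and 25.9 CPM in wild type, 44.8 and 39.6 in clone 4 and 39.7 and 34.3 in clone 6. These groups were again apart, but wild type of set 2, at 34.5 and 34.3 CPM, reached the lowest knockout library. The log2 change at +1.3 kb was 0.54 (SE 0.154, adjusted p = 0.00484) on counts and -0.13 on the authors' values with the median removed. It was called in 11 of the 15 settings.

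Region +143.0 kb, the one nearest to the inner starts under that alignment, read 24.0 and 29.2 CPM in wild type, 31.4 and 46.4 in clone 4 and 29.0 and 47.5 in clone 6. Its lowest knockout library lay just under the higher wild-type library, so the groups overlapped, and its log2 fold change was 0.54 (SE 0.167, adjusted p = 0.0102). It was called in 9 of the 15 settings, with log2 values from 0.02 to 0.69. The ninth call by adjusted p, +166.8 kb (chr9:2181633-2182319), had a log2 change of 0.79 (SE 0.273, adjusted p = 0.0246). Its libraries overlapped too, with 3.11 and 6.57 CPM in wild type and 6.32, 11.1, 6.28 and 9.16 in the knockout.

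Both edges of the window held a low region that fell. At -19.9 kb (chr9:1995003-1995629), wild type read 3.59 and 3.83 CPM and the 4 knockout libraries all stood at or under 1.55, a log2 change of -1.46 (SE 0.404, adjusted p = 0.00366). The wild type of set 1 was high here: the median over the 26 clones was 1.94 CPM, and wild type of set 2 read 1.15 and 2.16. With all wild type pooled the change was -1.02 and still called (adjusted p = 0.021), and on the authors' normalized values it was -0.61 and not called (adjusted p = 0.249). At +199.7 kb (chr9:2214639-2215140), wild type read 1.84 and 2.63 CPM and the knockout libraries 0.56 to 0.99, a log2 change of -1.46 (SE 0.470, adjusted p = 0.0147). It was called in 11 of the 15 settings, and not on the authors' values (-0.45, adjusted p = 0.408, or -0.81 with the median removed, adjusted p = 0.14) nor without wild-type replicate 2 (adjusted p = 0.184) or clone 6 replicate 1 (adjusted p = 0.0507). Both regions rest on few reads, with median counts of 17.5 and 19 per library.

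The SMARCA4 clones were also tested singly. Clone 4 alone had 10 called SMARCA2 regions (17.5% of all regions called) and clone 6 had 5 (15.8% called). Tested directly, clone 4 against clone 6 gave 0 calls at either locus with edgeR, with 1 region at an unadjusted p below 0.05, and 0.224% of all regions were called. The comparisons of both clones with wild type use the same wild-type libraries.

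SMARCA2 loss showed no called change at its own locus or at its paralog's. At SMARCA2 0 kb, clone 12 read 45.1 and 45.2 CPM, between the 35.1 and 52.2 of wild type, with a log2 change of 0.04 (SE 0.169, adjusted p = 0.989); its sign turned to -0.16 with all wild type pooled and to -0.21 without wild-type replicate 2. At SMARCA4 0 kb it read 23.3 and 22.9 CPM, also within the wild-type range, with -0.08 (SE 0.197, adjusted p = 0.979), or 0.10 with all wild type pooled. In all, 0 of 21 SMARCA2 regions and 0 of 4 SMARCA4 regions were called by edgeR or DESeq2, with 2 and 0 at an unadjusted p below 0.05, and 0.234% of all regions were called. Those 2 were +128.2 kb (chr9:2143115-2143693), with a log2 change of -1.18 (SE 0.481, adjusted p = 0.522), and +187.3 kb (chr9:2202166-2202876), with 0.79 (SE 0.283, adjusted p = 0.377). With 1 clone and 2 libraries against 2, a smaller change could not be seen: the SE at the 21 regions ran from 0.169 to 0.526.

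The difference between losing either ATPase was tested without wild type in the contrast. At SMARCA2, 9 of 21 regions were called, 6 higher in the SMARCA4 knockout and 3 lower, where 25.5% of all regions were called, 10.1% higher and 15.3% lower. At SMARCA4, 0 of 4 were called by edgeR and 0 by DESeq2, with 0 at an unadjusted p below 0.05. The knockouts thus differed at the SMARCA2 locus, and at SMARCA4 0 kb the log2 difference was 0.07 (SE 0.171), or -0.15 with cyclic loess scaling, -0.22 on the authors' values and -0.54 with their median removed (limma, adjusted p = 0.019).

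Of the SMARCA2 regions, +128.2 kb differed most. Clone 12 read 1.90 and 0.788 CPM, and wild type of set 1 lay above it with 2.81 and 3.11. Wild type of set 2 did not, at 2.15 and 0.577 CPM. SMARCA4 clones 4 and 6 read 5.21 and 8.79 and 3.82 and 5.63. Reads were few here, with a median count of 19.5 per library. All SMARCA4 knockout libraries exceeded both SMARCA2 knockout libraries, a log2 difference of 2.14 (SE 0.418, 4.41-fold, adjusted p = 1.38e-05). Region +165.4 kb read 7.81 and 11.2 CPM in clone 12, near wild type of set 1 at 10.5 and 11.0, and differed by 1.54 (SE 0.210, adjusted p = 4.52e-10).

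The opposite order held at +187.3 kb. It read 8.33 and 9.46 CPM in clone 12, against 4.34 and 4.67 in SMARCA4 clone 4 and 2.47 and 3.53 in clone 6. Wild type of set 1 lay between them at 5.82 and 4.42, save that its lower library lay within the range of the SMARCA4 clones. Wild type of set 2 lay above clone 12, at 11.6 and 11.3 CPM. The log2 difference was -1.27 (SE 0.247, adjusted p = 1.20e-05). Regions +9.8 kb (1.38), +1.3 kb (0.72), +143.0 kb (0.68) and 0 kb (0.44) were higher in the SMARCA4 knockout on the log2 scale, and +3.8 kb (-0.78) and +199.7 kb (-1.51) were lower. On the authors' values 4 of these calls were lost. The 0 kb difference was 0.00 and turned to -0.32 with their median removed. With the median removed, +1.3 kb fell to 0.02 (limma, adjusted p = 0.944) and +143.0 kb to 0.07 (adjusted p = 0.867), and +199.7 kb was at -0.55 before that step (adjusted p = 0.314).

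**Figure D2:**
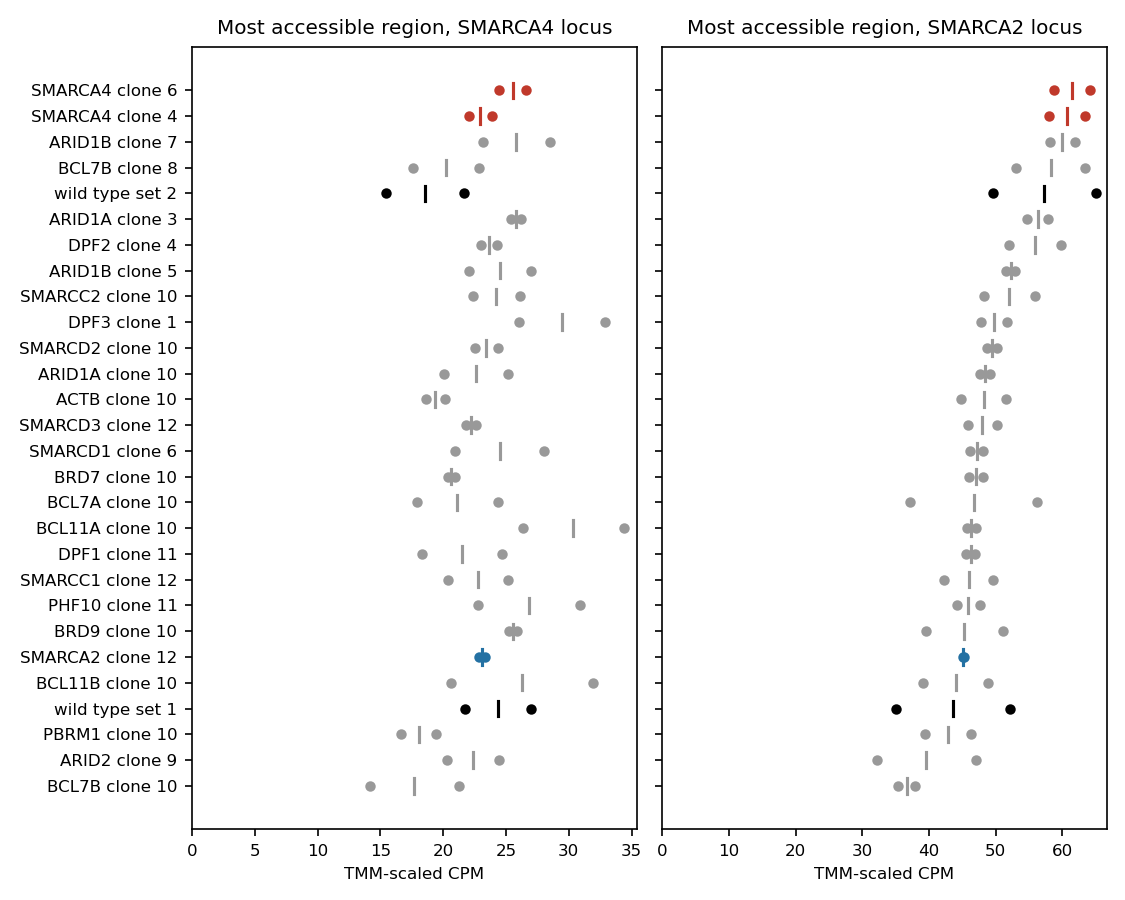
Accessibility in TMM-scaled CPM (horizontal axes, from 0) of the most accessible region of each locus in every knockout clone and wild-type set (rows, ordered by the SMARCA2 panel), with a point per library and a bar at the mean of 2. At SMARCA2 the SMARCA4 clones (red) have the highest means, 61.5 and 60.6 CPM, against 43.7 in wild type of set 1 and 57.3 in set 2 (black), while at SMARCA4 they lie mid-range at 25.5 and 23.0 CPM. SMARCA2 clone 12 is blue.

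Across all 26 clones, SMARCA4 0 kb ranged from 17.7 ± 5.02 CPM in BCL7B clone 10 to 30.4 ± 5.71 in BCL11A clone 10 (SD, n = 2), a 1.72-fold span. Every neighbouring pair in this order overlapped in its libraries. SMARCA2 0 kb spanned 1.68-fold, from 36.7 ± 1.85 CPM in BCL7B clone 10 to 61.5 ± 3.84 in SMARCA4 clone 6 (SD, n = 2). Here too all neighbours in the order overlapped. Both SMARCA4 clones topped the order at SMARCA2, followed by ARID1B clone 7 at 60.0 ± 2.65 CPM and BCL7B clone 8 at 58.3 ± 7.36 CPM. The spans of less accessible regions were wider: 4.84-fold at +165.4 kb, from 6.01 to 29.1 CPM, and 6.82-fold at +128.2 kb, from 1.03 to 7.00 CPM, each with its highest mean in SMARCA4 clone 4.

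The 20 knockouts of other genes gave no call at SMARCA4 and, at SMARCA2, calls at near the rate of all regions. These knockouts take away other subunits of the complexes, among them the BAF subunit ARID1A, the core subunit SMARCC1 and the PBAF subunits ARID2 and PBRM1. At SMARCA4, 0 of 80 tests were called by edgeR, 4 had an unadjusted p below 0.05, and log2 fold changes ran from -0.74 to 0.88. At SMARCA2, 6 of 420 tests were called, in 3 knockouts, beside 1.72% of all tests over these 20 comparisons. The comparisons share their wild-type libraries.

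**Figure D3:**
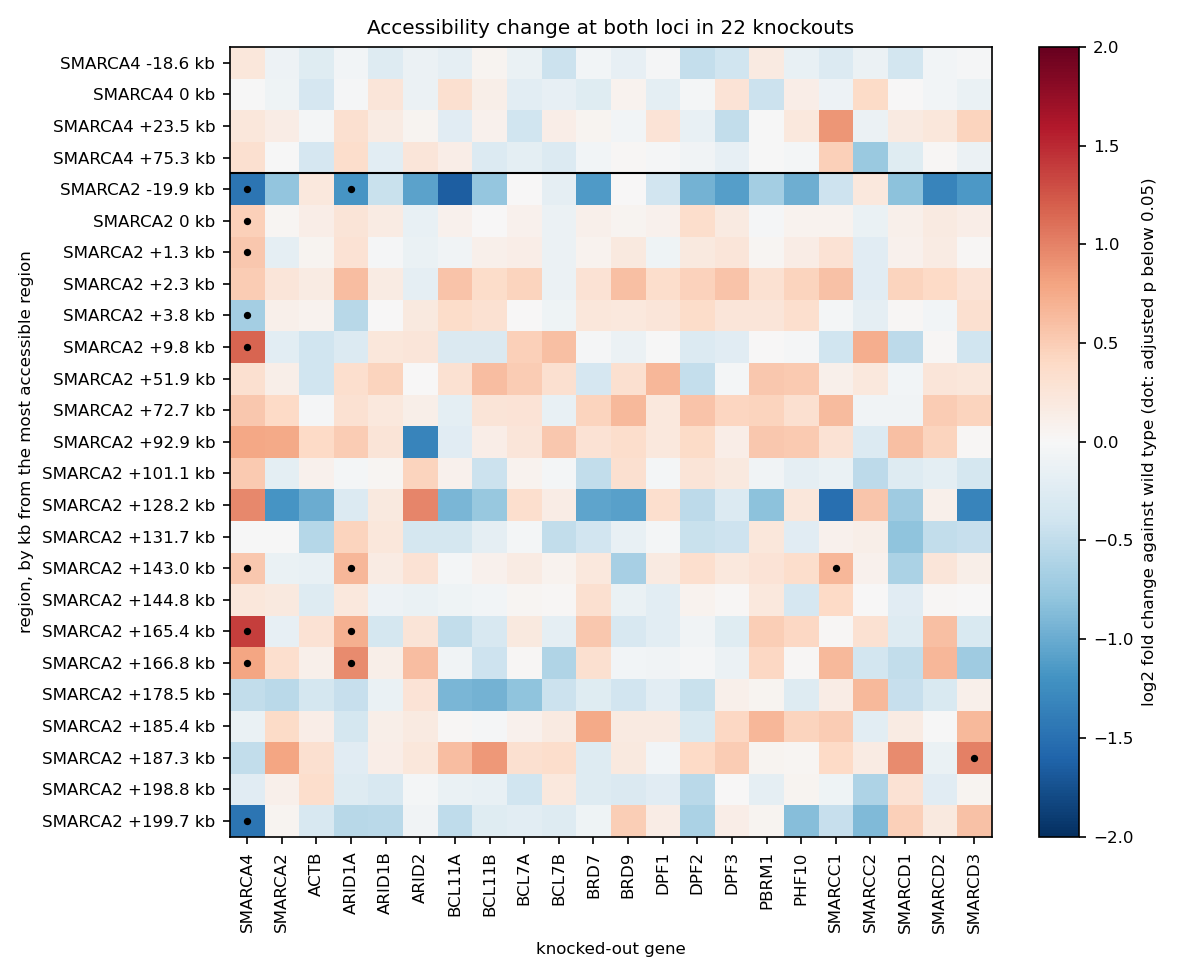
Log2 fold change against wild type of the own set (colour, red higher and blue lower, from -2 to 2) for the 25 regions (rows, SMARCA4 above the line) in the 22 knockouts (columns), with a dot where the adjusted p was below 0.05. Dots stand at 9 SMARCA2 regions in the SMARCA4 knockout, 4 in ARID1A, 1 in SMARCC1 and 1 in SMARCD3, and at no SMARCA4 region; the SMARCA2 0 kb and +1.3 kb rises in the SMARCA4 knockout turn negative on the authors' values with the median removed.

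ARID1A, an ARID-domain subunit of canonical BAF, accounted for 4 of these calls, where 12.6% of all regions were called. Its 2 clones read 13.7 and 19.4 CPM (clone 10) and 12.9 and 24.0 CPM (clone 3) at +165.4 kb, all above both wild-type libraries, a log2 change of 0.71 (SE 0.211, adjusted p = 0.012). At +166.8 kb they read 10.2, 9.11, 8.91 and 8.40 CPM, again apart from wild type, with 0.94 (SE 0.272, adjusted p = 0.00928). Region +143.0 kb rose by 0.66 (SE 0.167, adjusted p = 0.00203) and -19.9 kb changed by -1.17 (SE 0.396, adjusted p = 0.0321). The SMARCA4 knockout, set against the same wild-type libraries, had 1.38, 0.79, 0.54 and -1.46 at these 4 regions. At -19.9 kb, however, ARID1A knockout averaged 1.663 CPM, beside 1.655 in wild type of set 2 and 3.708 in set 1. Only 4 of the 22 knockouts had a positive log2 change at -19.9 kb, and their median was -0.8. At +9.8 kb, where the SMARCA4 knockout rose, the ARID1A clones read 3.91, 3.87, 5.00 and 3.32 CPM, no higher than wild type of set 1. Region +3.8 kb was low in ARID1A loss too, though not called. It read 8.83 and 6.28 CPM in clone 10 and 9.76 and 10.8 in clone 3, all below both wild-type libraries (14.5 and 11.2). Clone 10 had the lowest mean of the 26 clones there, at 7.55 CPM.

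The other calls were chosen for mention after their values were seen. In the SMARCC1 knockout (5.19% of all regions called), +143.0 kb read 37.8 and 46.3 CPM, above wild type, a log2 change of 0.67 (SE 0.188, adjusted p = 0.0159). In the SMARCD3 knockout (0.842% called), +187.3 kb read 12.2 and 8.69 CPM, with 1.01 (SE 0.281, adjusted p = 0.0493). Wild type read 5.82 and 4.42 CPM there in set 1, but 11.6 and 11.3 in set 2. At this region 17 of the 22 knockouts had a positive log2 change. Without wild-type replicate 1 only 1 of the 6 calls was left, and without wild-type replicate 2 or ARID1A clone 10 replicate 2 the count was 3.

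The wild-type sets themselves differed at 3 SMARCA2 regions and at 0 SMARCA4 regions (edgeR, 0 at an unadjusted p below 0.05), where 5.83% of all regions were called. At +165.4 kb, set 2 read 5.02 and 6.20 CPM, below the 10.5 and 11.0 of set 1 (log2 difference 0.93, SE 0.276, adjusted p = 0.0225). At +3.8 kb, set 2 read 20.9 and 22.9 CPM, above set 1 (-0.76, SE 0.224, adjusted p = 0.0214), and at +187.3 kb 11.6 and 11.3 CPM, above 5.82 and 4.42 (-1.15, SE 0.288, adjusted p = 0.00507). So +165.4 and +3.8 kb, both called in the SMARCA4 knockout, also separated libraries in which no gene was removed, and the part of this in the result was not tested. Region +187.3 kb was not called in the SMARCA4 knockout against wild type (-0.49, SE 0.273, adjusted p = 0.209). The SMARCA4 knockout libraries lay above both wild-type sets at +165.4 kb (25.9 to 32.3 CPM) and below both at +3.8 kb (7.67 to 8.50 CPM). With all wild type pooled, the log2 changes in the SMARCA4 knockout were 1.75 at +165.4 kb and -1.1 at +3.8 kb, both called by edgeR. With wild type of set 1 alone they were 1.38 and -0.68.

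The knockdown table has its own libraries and gave a second measurement of SMARCA4 loss. In SMARCA4 knockout cells with control knockdown, against wild-type cells with control knockdown, 2 of 21 SMARCA2 regions were called, where 9.75% of all regions were called. At +165.4 kb the control wild-type cells read 5.46 and 5.40 CPM and the knockout cells 15.4 and 16.3, a log2 change of 1.54 (SE 0.343, 2.91-fold, adjusted p = 0.000771). At +187.3 kb they read 9.27 and 10.6 against 5.12 and 3.10 CPM, a change of -1.26 (SE 0.358, adjusted p = 0.0117). The groups did not overlap at either region. Without wild-type control replicate 2 or knockout control replicate 2 the count of calls fell to 1.

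Region +3.8 kb was lower again in the knockout cells, 9.98 and 9.03 CPM against 18.8 and 18.5, but missed the threshold (-0.97, SE 0.352, adjusted p = 0.0661). SMARCA2 0 kb was not higher here. It read 54.2 and 52.0 CPM in the knockout cells against 64.1 and 59.4 in wild-type cells, and every setting gave a log2 change between -0.29 and -0.16 without a call. Neighbouring +1.3 kb read 38.9 and 39.5 against 35.6 and 32.9 CPM, higher in both libraries but not called (0.19, SE 0.375, adjusted p = 0.851). Region +9.8 kb, a strong rise in the knockout table, read 3.12 and 5.53 CPM here against 3.12 and 4.24. The groups overlapped at +9.8 kb and it was not called. At SMARCA4, 0 of 4 regions were called, with 1 at an unadjusted p below 0.05, and 0 kb read 22.7 and 25.6 against 32.3 and 23.8 CPM.

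Over the 21 SMARCA2 regions, the log2 fold changes of the knockout in the 2 tables had the same sign at 16 regions, and at 8 of the 9 called in the knockout table. Pearson's r was 0.65 and Spearman's rho 0.68 across these 21 regions, which are neighbours and share each library, so they are not independent.

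**Figure D4:**
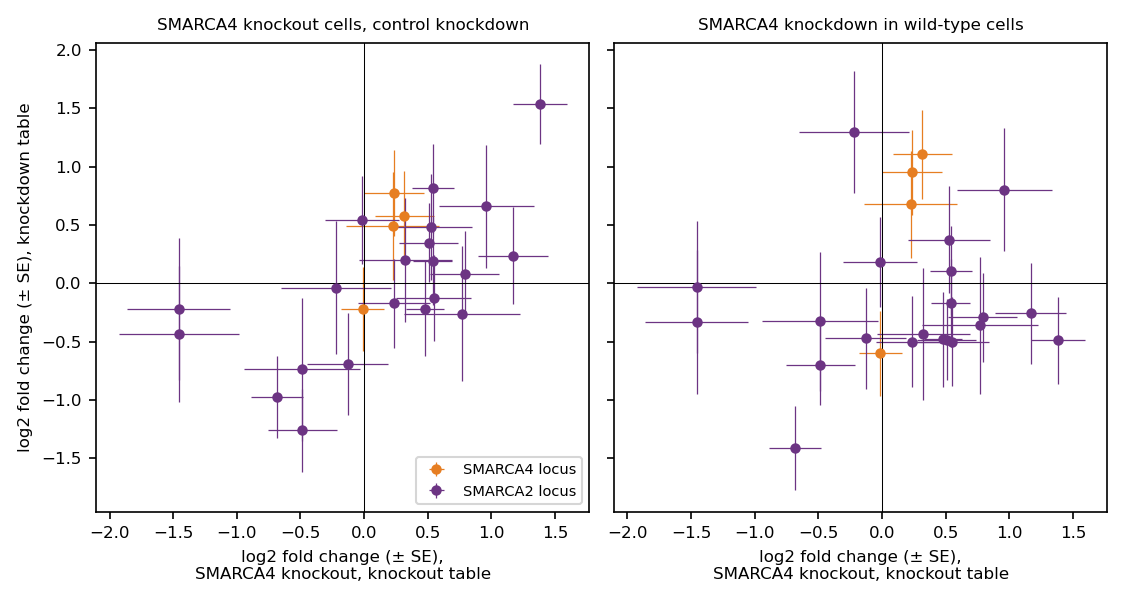
Log2 fold change (± SE) of the 25 regions after SMARCA4 knockout in the knockout table (horizontal axes) against SMARCA4 knockout cells with control knockdown (left, vertical axis) and SMARCA4 knockdown in wild-type cells (right, vertical axis), with SMARCA4 regions in orange and SMARCA2 regions in purple. Among the SMARCA2 regions 16 of 21 share the sign on the left (r = 0.65) and 9 of 21 on the right (r = 0.12); 0 kb and +1.3 kb would change sign on the horizontal axis with the authors' values and their median removed.

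Knockdown of SMARCA4 in wild-type cells gave another picture of the same locus. Only +3.8 kb was called, where 5.73% of all regions were called: it read 7.21 and 6.78 CPM after knockdown against 18.8 and 18.5 in the control. The groups were far apart and the log2 fold change was -1.41 (SE 0.361, adjusted p = 0.00801), yet leaving out any 1 of the 4 libraries ended the call, with values of -1.47 to -1.37. At +165.4 kb the knockdown read 4.48 and 3.14 CPM, under both control libraries and not called.

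The knockout cells and the knockdown cells thus differed at +165.4 kb. Set against each other, in a comparison added after the data had been seen, they gave a log2 difference of 2.03 (SE 0.359, 4.08-fold, adjusted p = 0.000313). It was 1 call among 21 SMARCA2 regions, where 0.785% of all regions were called. At +3.8 kb both were low and were not called apart. Of the 9 regions called in the knockout table, 4 had the same sign after knockdown, and over the 21 regions r was 0.12 and rho 0.12. The other SMARCA4 knockdowns shared the sign at more of these 9 regions. The double knockdown with ARID2 did so at 6 (r = 0.33 and rho 0.23 over the 21). SMARCA4 knockdown in ARID2 knockout cells did so at 7 (r = 0.37 and rho 0.20). Over all 21 regions, each of them shared the sign at 10.

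At the SMARCA4 locus itself, knockdown came with 2 regions at an unadjusted p below 0.05 and 0 called of 4. Region +75.3 kb read 18.6 and 12.9 CPM against 7.71 and 6.95 (1.11, SE 0.381, adjusted p = 0.0692) and -18.6 kb read 11.0 and 9.43 against 6.15 and 4.37 (0.95, SE 0.365, adjusted p = 0.116). Both were above their controls in each library, and SMARCA4 0 kb, at 20.7 and 16.2 against 32.3 and 23.8 CPM, was below (-0.60, SE 0.363, adjusted p = 0.388). Regions within 1000 kb had a median of 0.32. With cyclic loess scaling 1 of the 4 was called (+75.3 kb), and with the replicate number as a block 2 were (+75.3 and -18.6 kb).

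Where ARID2, the PBAF-defining subunit, was also reduced, +3.8 kb was again low. Double knockdown of SMARCA4 and ARID2 in wild-type cells gave 2 called SMARCA2 regions, where 4.62% of all regions were called. These were +3.8 kb, at 8.90 and 5.34 CPM (-1.37, SE 0.359, adjusted p = 0.0119), and +187.3 kb, at 3.67 and 3.77 CPM (-1.41, SE 0.363, adjusted p = 0.0102). Both lay below the control libraries throughout, but the count fell to 0 without either control library or double-knockdown replicate 2, and to 1 without replicate 1. At SMARCA4, 0 of 4 were called by edgeR, with 0 at an unadjusted p below 0.05.

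In ARID2 knockout cells, SMARCA4 knockdown gave 0 called regions at either locus by edgeR, with 1 SMARCA2 and 2 SMARCA4 regions at an unadjusted p below 0.05, where 0.195% of all regions were called. At +3.8 kb it read 13.2 and 6.12 CPM against 19.0 and 11.6 in their control, so the groups overlapped. The test of whether the knockdown effect differs between ARID2 knockout and wild-type cells gave 0 calls at either locus and 0% of all regions called, with 3 SMARCA2 and 0 SMARCA4 regions at an unadjusted p below 0.05. ARID2 knockout cells with control knockdown showed 0 calls at either locus, with 2 regions at each locus at an unadjusted p below 0.05 and 0.418% of all regions called. Region +187.3 kb was low in them too, at 3.39 and 4.23 CPM (-1.37, SE 0.368, adjusted p = 0.0668). It was not low in the knockout table, where ARID2 clone 9 read 6.01 and 6.06 CPM, above wild type of set 1 at 5.82 and 4.42. ARID2 knockdown gave 0 calls at either locus in wild-type cells and in SMARCA4 knockout cells, with 0 at an unadjusted p below 0.05 in both, and 0% of all regions were called.

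**Figure D5:**
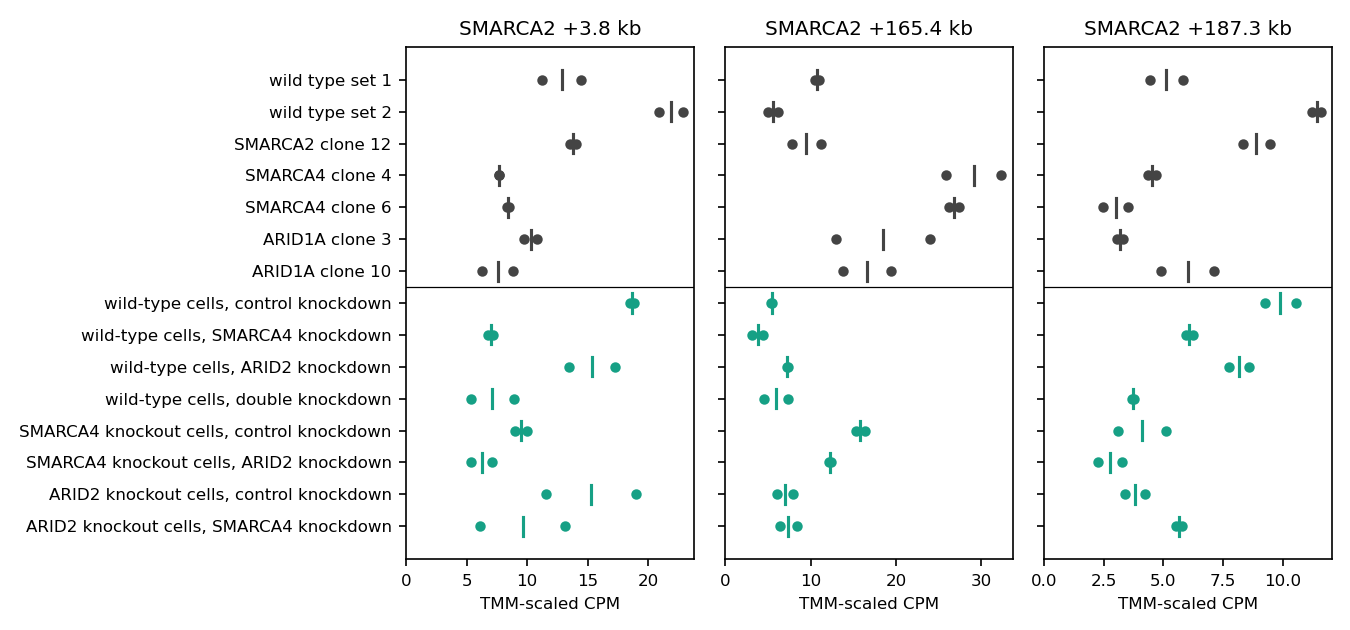
TMM-scaled CPM (horizontal axes, from 0) of 3 SMARCA2 regions in each library (points) with the mean of 2 (bars), with knockout-table groups in grey above the line and knockdown-table groups in green below it. SMARCA4 knockout libraries stand highest at +165.4 kb in both tables (25.9 to 32.3 and, with control knockdown, 15.4 to 16.3 CPM). SMARCA4 knockdown in wild-type cells does not (3.14 to 4.48 CPM), and +3.8 kb is low with either. With SMARCA4 knockdown in ARID2 knockout cells, +3.8 kb overlaps its control (6.12 to 13.2 against 11.6 to 19.0 CPM).

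In ARID2 knockdown of SMARCA4 knockout cells, +165.4 kb read 12.1 and 12.4 CPM and +3.8 kb 5.39 and 7.09 CPM. The first lay above and the second below both wild-type control libraries.

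The profile of each 0 kb region over the 24 group means of set 1 was compared with those of 72712 regions of above-median accessibility outside both loci. Likeness is Pearson's r of log2 CPM. Most like SMARCA4 0 kb were chr13:114238561-114240066 (r = 0.882), chr17:80375742-80376991 (0.857) and chr17:48942755-48943267 (0.853), where 0.1% of regions exceeded 0.762. Most like SMARCA2 0 kb were chr7:142985023-142985776 (r = 0.941), chr4:148538217-148538795 (0.939) and chr3:167452514-167453153 (0.934), where 0.1% exceeded 0.885. These are the highest of many values over 24 points that share libraries. With all 28 groups, 1 of the 3 was again among the top 3 for SMARCA4 and 0 for SMARCA2.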

How the data were processed

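ATAC-seq counts of HAP1 libraries were used as deposited. The deposited tables hold whole-number counts of reads per region and library, not scaled for depth. The labels list 74 samples, and 72 were matched to a column by title. Wild-type replicates 3 and 4 were not analysed here, and 2 further columns were not used. Per the submitters' processing notes, the tools included MACS2 2.1.1.20160309, Bowtie2 2.2.4 and Picard 1.118, with hg19 as build. How regions were merged and reads counted is not given in the sources used here, nor whether starts count from 0 or 1. A further table holds normalized values of the authors on a scale taken as log2, since their slope on log2 CPM was 0.612 to 0.912 over 48 libraries; its base is not stated, so its log2 changes may be off by a factor. It served only for an alternative test with limma 3.58.1.

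Members were all regions overlapping both windows. Counts of all regions were fitted in R 4.3.3 with edgeR 4.0.16: TMM, the default low-count filter, the quasi-likelihood test, 2-sided, Benjamini-Hochberg over all regions. Each clone and each wild-type set had its own coefficient. After the filter 145532 regions were tested in the knockout table (28 residual degrees of freedom) and 145617 in the other (8, from 8 groups). Knockouts were set against wild type of their own set, and genes with 2 clones as the mean of both. SE is the log2 fold change over the square root of F. DESeq2 1.42.0 was an alternative. The fit was tested on simulated data.

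The members and lists were chosen with earlier results of these data known. Named with values were the most accessible region per locus, up to 8 called regions per comparison of an ATPase by adjusted p, up to 3 calls per direction for other knockouts, and the 3 regions most like each 0 kb region; other regions named were chosen after their values were seen. The regions are paired with no gene in the files, so other genes of the complexes were not analysed here. Same-numbered replicates were not shown to be pairs (their deviations correlated at -0.17 to 0.26 among set 1 libraries and at 0.06 to 0.45 among knockdown libraries, where 89.3% of pairs but not all exceeded 0.1).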

Additional observations from a re-analysis of the deposited data

Results flagged for a closer look

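At SMARCA2 +165.4 kb, SMARCA4 knockout cells with control knockdown exceeded wild-type cells with SMARCA4 knockdown by a log2 difference of 2.03, and the difference between these ways of losing SMARCA4 was itself tested and called by edgeR (adjusted p = 0.000313). The knockout cells read 15.4 and 16.3 CPM and the knockdown cells 4.48 and 3.14 CPM (n = 2 each). Differences between clones, in time since loss and in the amount of SMARCA4 left cannot be told apart in this design. The 4 libraries of the SMARCA4 knockout and the 4 of the ARID1A knockout, each over both clones, were checked for a library apart at the regions named for them, 15 checks in all, and none was found. Groups of 2 libraries cannot be checked in this way.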

How the results depend on the processing

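Each comparison has 2 libraries per clone or group, and the SMARCA2 knockout 1 clone, so single libraries decide several calls. At the SMARCA2 locus, calls by edgeR ran over the leave-one-out settings from 6 to 9 for the SMARCA4 knockout (9 with all libraries), 7 to 9 for the SMARCA4 against the SMARCA2 knockout (9), 1 to 7 for the other 20 knockouts (6; 1 if wild-type replicate 1 is dropped, 3 if wild-type replicate 2 or ARID1A clone 10 replicate 2), 0 to 0 for SMARCA4 knockdown in wild-type cells (1), 1 to 2 for SMARCA4 knockout cells with control knockdown (2), 0 to 1 for the double knockdown (2) and 0 to 3 for the wild-type sets (3; 0 if replicate 2 or 5 is dropped, 1 if replicate 6 is). A lone library was then taken to vary like the other groups.

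The authors' normalized values with the median removed (limma) gave 4 calls at SMARCA2 and 1 at SMARCA4 for the SMARCA4 knockout, 1 at SMARCA4 for the SMARCA4 against the SMARCA2 knockout and 3 at SMARCA4 for the other 20 knockouts. With all wild type pooled the other 20 gave 15 calls at SMARCA2. Cyclic loess scaling gave 10 for the other 20, 2 at SMARCA2 and 1 at SMARCA4 for SMARCA4 knockdown in wild-type cells, and 4 at SMARCA2 for SMARCA4 knockout cells with control knockdown. The cause was not tested. With the replicate number as a block, calls were 12 at SMARCA2 for the other 20, 2 at SMARCA4 for SMARCA4 knockdown and 4 at SMARCA2 for SMARCA4 knockout cells with control knockdown; the block changed no other count by over 1.5 times, and the numbers were not shown to pair the libraries.

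Of 501 values of named regions under other settings, 423 counted as unchanged. For values relative to the median of regions within 1000 kb, which have no test, this meant only a median smaller than the SE. Elsewhere it meant the same side of the threshold and the same direction. Among the 423, 12 uncalled values at 0 kb regions turned sign by less than 1 SE. Of the rest, 64 lost and 2 gained a call. Signs turned by more in the SMARCA4 knockout at SMARCA4 0 kb (0.17, wild type pooled) and at SMARCA2 0 kb (-0.33) and +1.3 kb (-0.13) on the authors' values with the median removed. They turned in the SMARCA2 knockout at SMARCA2 0 kb (-0.16 with wild type pooled, leave-one-out -0.21 to 0.36, the lowest without wild-type replicate 2). For the SMARCA4 against the SMARCA2 knockout they turned at SMARCA4 0 kb (-0.22 on the authors' values, -0.54 with their median removed, -0.15 with cyclic loess) and SMARCA2 0 kb (-0.0003 and -0.32 on the authors' values without and with the median removed). The smaller turns include SMARCA4 0 kb in the SMARCA2 knockout (0.10 with wild type pooled, 0.09 without wild-type replicate 1) and, for SMARCA4 knockdown in ARID2 knockout cells with cyclic loess, SMARCA2 0 kb (-0.09) and SMARCA4 0 kb (-0.28). Relative to the median of regions within 1000 kb, SMARCA4 0 kb was at -0.31 in the SMARCA4 knockout and -0.19 between the knockouts.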
